A study of Mus musculus with 15 samples.

Results

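The protocadherins were taken as every gene of the count table whose mouse symbol begins with Pcdh, which gave 70 gene IDs with 69 symbols among 43432 genes. They were the alpha cluster with 14 IDs, the beta cluster with 22, the gamma cluster with 22, and 12 non-clustered genes. RNA was sequenced from mouse embryonic fibroblasts (MEFs, primary cells grown from embryos) after infection with lentiviruses carrying the proneural transcription factors Ngn1 or Ngn3 (genes Neurog1 and Neurog3). Doxycycline, which switched the factors on, was added on day 0, and the fibroblast medium was replaced by neuronal medium on day 2. There were 3 libraries, a, b and c, in each of 5 groups: D13_Ngn3 and D13_Ngn1, collected 13 days after induction, D1_Ngn3 and D1_Ngn1, collected at 24 hours, and Ctrl, MEFs whose virus, medium and collection time the labels do not give. The day 13 groups differ from the day 1 groups in medium as well as in time, and these cannot be told apart, nor can the factor be told apart from whatever else distinguishes Ctrl. Whether the 3 libraries of a group represent independent cultures is not stated. The p-values therefore reflect library-to-library spread only, and that spread may be technical.

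Protocadherins are the largest branch of the cadherin superfamily of calcium-dependent adhesion molecules. In the alpha and gamma clusters each variable exon has its own promoter and is spliced to constant exons shared by the whole cluster, whereas beta genes are single-exon genes. In neurons, variable promoters are chosen largely at random with the help of CTCF and cohesin, each neuron thereby carries its own set of isoforms, and homophilic recognition between matching sets underlies self-avoidance of dendrites and axons. The C-type genes at the end of the alpha and gamma clusters are transcribed in most neurons in place of being chosen at random, and the non-clustered delta-1 and delta-2 protocadherins act in axon guidance, cell sorting and synapse formation.

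Total counts were 14869015 to 17859844 per library, and levels are given as CPM, counts scaled to library size with trimmed-mean (TMM) factors. The delivered gene matched the label in every library: Neurog3 had 20393 to 98008 counts in the Ngn3 libraries, and Neurog1 had 16252 to 80443 counts in the Ngn1 libraries. Ctrl held 0 counts of Neurog1 and 1 count of Neurog3. Summed over 12 fibroblast markers, levels were 14405 to 36886 CPM in D13_Ngn3, 14261 to 39689 CPM in D13_Ngn1, 3949 to 5186 CPM in D1_Ngn3, 3695 to 5248 CPM in D1_Ngn1 and 3836 to 8335 CPM in Ctrl. Fewer cells of a type and less RNA per cell cannot be told apart in such bulk libraries. In the GENCODE M21 annotation (mm10), exons of alpha genes were shared for 48.6 to 93.0% of their length, those of gamma genes for 31.5 to 100% and those of beta genes for 0 to 63.5% (median 0%). The 4 gene models that share exons with every gamma gene (Gm37013, Gm37388, Gm38182 and Gm42416) had 0 counts in all 15 libraries. How reads in shared exons were assigned, and whether strand was used, is not given in the sources used here, so the split of alpha and gamma counts between genes is uncertain. Pcdhga10 has 0 exon bases free of other genes on both strands and 2613 on its own strand, and had 0 to 4 counts per library. Its neighbours Pcdhgb6 and Pcdhgb7, with 2565 and 1823 bases free on both strands, had 54 to 496 and 20 to 171. Whether low counts of genes with few such bases, Pcdha4 among them, reflect the counting was not tested.

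Both day 13 groups held more RNA of all 3 clusters than Ctrl, by fold factors that ranged from 3.37 to 12.4 over the Ctrl mean. The summed alpha level was 9.94, 17.98 and 7.19 CPM in the D13_Ngn3 libraries and 8.29, 33.98 and 26.5 CPM in the D13_Ngn1 libraries. In D1_Ngn3 the alpha sum was 0.832, 0.869 and 0.443 CPM, in D1_Ngn1 0.788, 0.529 and 0.466 CPM, and in Ctrl 1.72, 2.496 and 1.33 CPM. All 6 day 13 libraries lay above all Ctrl libraries, and all 6 day 1 libraries lay below them. In Ctrl, Pcdhac2 held 73 of the 87 alpha counts, and the 12 variable alpha genes alone stood at 34.7 times the Ctrl mean in D13_Ngn3, 66.3 times in D13_Ngn1, 1.69 times in D1_Ngn3 and 1.05 times in D1_Ngn1. The summed beta level was 322, 342 and 238 CPM in the D13_Ngn3 libraries and 233, 269.9 and 302 CPM in the D13_Ngn1 libraries. In D1_Ngn3 the beta sum was 19.8, 49.2 and 23.7 CPM, in D1_Ngn1 27.8, 52.3 and 20.5 CPM, and in Ctrl 22.9, 37.1 and 28.1 CPM. Day 13 libraries stood clear of all others here too, while the day 1 and Ctrl ranges overlapped. The summed gamma level was 118, 289 and 128 CPM in the D13_Ngn3 libraries and 160.3, 234 and 147 CPM in the D13_Ngn1 libraries. In D1_Ngn3 the gamma sum was 63.95, 95.8 and 82.5 CPM, in D1_Ngn1 65.4, 97.6 and 53.5 CPM, and in Ctrl 49.2, 53.8 and 55.8 CPM. Relative to the Ctrl mean, the summed alpha level was 6.33 times in D13_Ngn3 and 12.4 times in D13_Ngn1, the beta level 10.2 and 9.14 times, and the gamma level 3.37 and 3.41 times. The 12 non-clustered genes together had 523, 709.6 and 380.4 CPM in the D13_Ngn3 libraries and 586, 755 and 495 CPM in the D13_Ngn1 libraries. In D1_Ngn3 the non-clustered sum was 141, 117 and 172 CPM, in D1_Ngn1 168, 168 and 148 CPM, and in Ctrl 424, 223 and 268 CPM. Their day 1 sums lay below every Ctrl sum in both groups, and the D13_Ngn3 range overlapped that of Ctrl. Non-clustered genes made up 52.3% of all protocadherin CPM in D13_Ngn3, 56.5% in D13_Ngn1, 56.0% in D1_Ngn3, 60.3% in D1_Ngn1 and 78.4% in Ctrl. Beta genes made up 29.2%, 24.8%, 12.1%, 12.5% and 7.55% in the same order of groups.

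**Figure D1:**
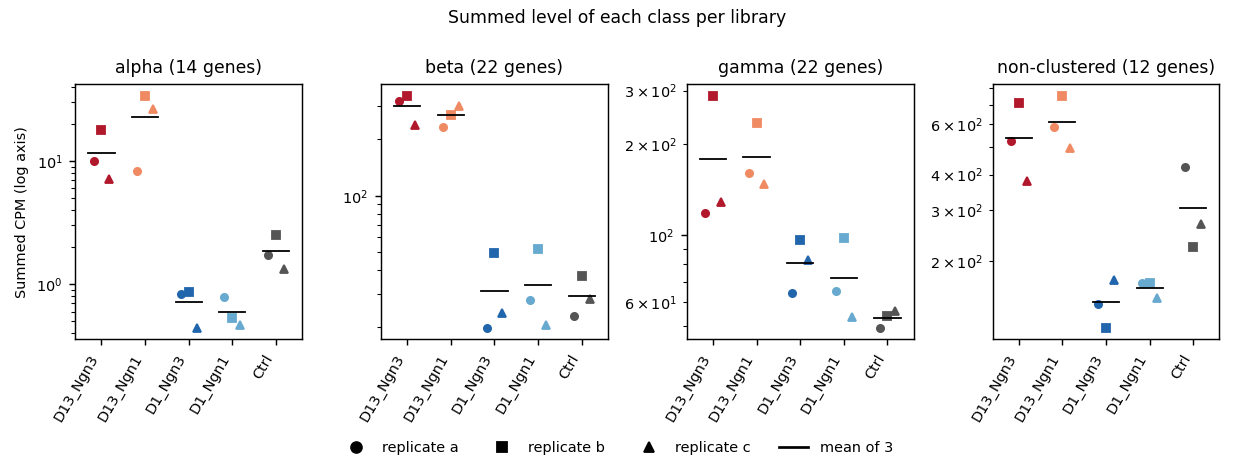
Summed CPM of the alpha, beta, gamma and non-clustered protocadherin genes (log axis) in each library of the 5 groups; symbols mark replicates a, b and c and the bar is the mean of the 3 libraries. All day 13 libraries lie above all Ctrl libraries for alpha, beta and gamma, and day 1 libraries lie below Ctrl for alpha and for the non-clustered genes.

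Differences were tested gene by gene with edgeR's quasi-likelihood test on the counts, with Benjamini-Hochberg adjustment over the 16872 genes that passed the filter on low counts, and a gene is said to have risen or fallen where the adjusted p was under 0.05. Fold changes below are log2 values ± standard error with 3 libraries per group. Of the 70 members, 63 passed the filter (10 alpha, 21 beta, 21 gamma and 11 non-clustered); Pcdha4, Pcdha8, the Pcdha11 entry ENSMUSG00000102206, Pcdhac1, Pcdhb1, Pcdhga10 and Pcdh12 did not. In D13_Ngn3 against Ctrl, 55 members rose and 1 fell, where 31.2% of all tested genes rose and 26.4% fell. In D13_Ngn1 against Ctrl, 55 members rose and 0 fell, where 32.6% of all tested genes rose and 26.8% fell (0 lower at an unadjusted p under 0.05, and 0 by DESeq2). Pcdh15, the tested variable alpha genes and part of the beta genes passed the filter through their day 13 libraries, and Pcdh8 through libraries other than Ctrl. Their part of these counts is a description. With plain library totals in place of TMM, the median of all tested genes was 0.40 in both comparisons and the share of higher among all called genes was 67.5% in D13_Ngn3 and 67.3% in D13_Ngn1, against 54.1% and 54.9% with TMM. The median log2 fold change of the tested members was 2.99 in D13_Ngn3 and 2.86 in D13_Ngn1, against 0.096 and 0.10 over all tested genes. At day 1 the picture was mixed: in D1_Ngn3 against Ctrl 2 members rose and 6 fell, where 7.19% of all tested genes rose and 5.59% fell, and in D1_Ngn1 against Ctrl 2 rose and 6 fell, where 6.78% rose and 5.42% fell. The same 8 genes were called with both factors: Pcdh1 and Pcdhgb7 rose, and Pcdh9, Pcdh10, Pcdh18, Pcdh19, Pcdh20 and Pcdhac2 fell. The comparisons with Ctrl share the Ctrl libraries. Without Ctrl replicate a, 2 of the 6 lower calls in D1_Ngn1 were left, and without D1_Ngn1 replicate b, 3 were left.

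Among the delta-1 protocadherins, Pcdh1 was the member that rose most at day 1. Pcdh1 (chr18:38185914-38212053) had 3.999, 13.8 and 6.62 CPM in the D13_Ngn3 libraries and 6.67, 19.4 and 9.65 CPM in the D13_Ngn1 libraries. In D1_Ngn3 Pcdh1 had 17.8, 8.98 and 18.5 CPM, in D1_Ngn1 26.7, 21.4 and 12.2 CPM, and in Ctrl 0.595, 0.896 and 1.21 CPM. Every Ngn3 or Ngn1 library lay above every Ctrl library, and the day 13 and day 1 ranges overlapped. The log2 fold change over Ctrl was 3.16 ± 0.55 (adjusted p = 0.000191) in D13_Ngn3, 3.71 ± 0.56 (adjusted p = 4.9e-05) in D13_Ngn1, 4.05 ± 0.56 (adjusted p = 0.000181) in D1_Ngn3 and 4.47 ± 0.57 (adjusted p = 7.8e-05) in D1_Ngn1.

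Pcdh7, another delta-1 gene (chr5:57717967-58133230), had 109, 178 and 104 CPM in the D13_Ngn3 libraries and 164, 201 and 131 CPM in the D13_Ngn1 libraries. In D1_Ngn3 Pcdh7 had 52.6, 44.3 and 78.8 CPM, in D1_Ngn1 51.05, 64.3 and 68.02 CPM, and in Ctrl 58.9, 36.6 and 52.4 CPM. Pcdh7 did not pass the test at day 1 and rose by 1.402 ± 0.27 (adjusted p = 0.00044) in D13_Ngn3 and 1.75 ± 0.27 (adjusted p = 7.0e-05) in D13_Ngn1. Of its exon length, 21.1% is also covered by the antisense gene 4932441J04Rik, which had 6 to 80 counts per library. Pcdh9 (chr14:93013410-93890679) had 64.8, 66.4 and 61.4 CPM in the D13_Ngn3 libraries and 69.99, 92.99 and 89.6 CPM in the D13_Ngn1 libraries. In D1_Ngn3 Pcdh9 had 11.4, 3.94 and 9.86 CPM, in D1_Ngn1 15.3, 4.18 and 7.19 CPM, and in Ctrl 55.9, 22.3 and 25.1 CPM. It fell at day 1 in both groups, with log2 fold changes of -2.04 ± 0.45 (adjusted p = 0.00679) in D1_Ngn3 and -1.96 ± 0.45 (adjusted p = 0.00874) in D1_Ngn1, with all day 1 libraries below all Ctrl libraries. At day 13 all libraries lay above Ctrl, with 0.899 ± 0.43 (adjusted p = 0.0846) in D13_Ngn3 (not called) and 1.29 ± 0.43 (adjusted p = 0.0179) in D13_Ngn1 (called). The D13_Ngn3 difference was called with the replicate letter as a block over all groups or within a day (adjusted p = 0.0228 and 0.0148), with library totals (0.0188), with no filter (0.0263), with only the groups compared (0.0357), and without Ctrl replicate a or D1_Ngn1 replicate a (0.0172 and 0.0495). The block within a day takes the spread between letters out of the error. In comparisons with Ctrl or between days its p-values can therefore be too small. The D1_Ngn1 call was lost without Ctrl replicate a (adjusted p = 0.0540), and the D13_Ngn1 call was lost without Ctrl replicate b or c or without D13_Ngn1 replicate b (adjusted p = 0.0862, 0.0877 and 0.0546). Pcdh11x, an X-linked gene at chrX:120290259-120910619, had 13.7, 16.9 and 22.5 CPM in the D13_Ngn3 libraries and 16.2, 23.9 and 18.5 CPM in the D13_Ngn1 libraries. In D1_Ngn3 Pcdh11x had 2.71, 5.39 and 4.11 CPM, in D1_Ngn1 2.83, 4.29 and 2.06 CPM, and in Ctrl 3.97, 6.59 and 2.17 CPM. It did not pass the test at day 1 and rose by 2.06 ± 0.39 (adjusted p = 0.000383) in D13_Ngn3 and 2.204 ± 0.39 (adjusted p = 0.000215) in D13_Ngn1.

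The delta-2 protocadherins held the member with the greatest fold change, Pcdh8, and Pcdh10, which changed in opposite directions at the 2 times. Promoter sequences are shown for the 3 delta-2 genes that rose at day 13, Pcdh8, Pcdh10 and Pcdh17, and for the delta-1 gene Pcdh9, which fell at day 1, so that they can be set beside their expression. Each is the 250 bases before the RefSeq start on the gene's own strand (GRCm38.p6), at chr14:79771313-79771562 (minus strand), chr3:45378148-45378397 (plus strand), chr14:84443313-84443562 (plus strand) and chr14:93890680-93890929 (minus strand). Capitals mark CCAAT or its reverse complement ATTGG, searched on both strands.
Pcdh8: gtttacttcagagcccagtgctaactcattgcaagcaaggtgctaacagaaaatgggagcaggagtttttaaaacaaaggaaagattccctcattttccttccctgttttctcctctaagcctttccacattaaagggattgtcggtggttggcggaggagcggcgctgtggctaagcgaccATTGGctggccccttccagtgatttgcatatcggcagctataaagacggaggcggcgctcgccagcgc
Pcdh10: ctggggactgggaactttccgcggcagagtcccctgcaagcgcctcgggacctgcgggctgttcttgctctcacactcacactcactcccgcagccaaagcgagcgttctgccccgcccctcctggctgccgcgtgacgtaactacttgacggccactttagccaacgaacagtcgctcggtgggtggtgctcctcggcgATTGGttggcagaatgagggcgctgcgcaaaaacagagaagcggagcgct
Pcdh17: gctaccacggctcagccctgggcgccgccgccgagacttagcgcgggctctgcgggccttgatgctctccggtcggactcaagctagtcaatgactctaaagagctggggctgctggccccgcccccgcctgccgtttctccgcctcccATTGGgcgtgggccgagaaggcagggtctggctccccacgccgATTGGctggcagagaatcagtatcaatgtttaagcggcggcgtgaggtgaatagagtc
Pcdh9: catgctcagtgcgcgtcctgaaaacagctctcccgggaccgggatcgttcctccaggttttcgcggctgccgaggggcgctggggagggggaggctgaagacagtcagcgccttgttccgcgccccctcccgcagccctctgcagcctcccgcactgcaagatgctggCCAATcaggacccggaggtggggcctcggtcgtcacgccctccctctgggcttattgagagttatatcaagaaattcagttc
Of the 9 non-clustered protocadherin genes searched in the RefSeq promoter table, 8 held CCAAT on either strand in these 250 bases, as did 33.8% of all 32851 promoters in the table; the motif was picked after the sequences were read. The E-box forms CAGATG (both strands) and CAGCTG, which proneural factors can bind, were found in 0 of the 10 promoter windows of these genes, and 25.5% of all promoters hold at least 1 of them. GC content was 51.2% for Pcdh8, 63.2% for Pcdh10, 64.8% for Pcdh17 and 63.6% for Pcdh9, against a median of 52.4% over all promoters. The observed over expected CpG ratio was 0.673, 0.883, 0.8 and 0.713 in the same order, against a median of 0.374. The genes searched but not shown ranged more widely. Pcdh20 had a ratio of 0.267, Pcdh15 0.378, Pcdh7 0.419, Pcdh19 0.573 and Pcdh18 0.815. GC content ran from 42.4% in Pcdh20 to 69.2% in Pcdh19. These matches describe letters in a window and no binding was measured.

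Pcdh8 (arcadlin, chr14:79766775-79771312), whose protein is induced by activity at synapses, had 70.9, 135 and 17.4 CPM in the D13_Ngn3 libraries and 45.8, 39.8 and 7.93 CPM in the D13_Ngn1 libraries. In D1_Ngn3 Pcdh8 had 0.694, 0.0579 and 0.443 CPM, in D1_Ngn1 0.788, 0.647 and 0.732 CPM, and in Ctrl 0, 0.06401 and 0.0603 CPM. The Ctrl libraries held 2 counts of it in all. D13_Ngn3 replicate c and D13_Ngn1 replicate c were the lowest of their groups. The ratio of summed counts to Ctrl was 1780 (95% counting interval 493 to 14700) in D13_Ngn3, 725 (95% counting interval 200 to 5990) in D13_Ngn1, 8.97 (95% counting interval 2.15 to 79.7) in D1_Ngn3 and 17 (95% counting interval 4.37 to 146) in D1_Ngn1, where intervals cover counting error only. The day 13 differences passed the test (adjusted p = 2.3e-06 in D13_Ngn3 and 7.0e-06 in D13_Ngn1) and the day 1 differences did not (0.290 and 0.115). Pcdh8 passed the filter on low counts only through libraries other than Ctrl, so its rises are a description. With the replicate letter as a block within a day both day 1 differences were called (adjusted p = 0.0377 in D1_Ngn3 and 0.00402 in D1_Ngn1), and the D1_Ngn1 difference was also called with the block over all groups (0.0443), with no filter (0.00622), with only the groups compared (0.00611) and by DESeq2 (0.0245). The p-values of the block within a day can be too small here, as letter spread leaves the error. With only the groups compared, Pcdh8 passed the filter through its D1_Ngn1 libraries. Pcdh10 (chr3:45378398-45435623), which promotes axon growth through striatal and thalamocortical paths, had 39.2, 87.8 and 38.6 CPM in the D13_Ngn3 libraries and 50.1, 85.5 and 58.97 CPM in the D13_Ngn1 libraries. In D1_Ngn3 Pcdh10 had 0.763, 1.45 and 1.52 CPM, in D1_Ngn1 1.71, 2.06 and 1.26 CPM, and in Ctrl 9.59, 2.75 and 4.58 CPM. No day 1 library reached the lowest Ctrl library, and no day 13 library came down to the highest. The log2 fold change over Ctrl was 3.29 ± 0.44 (adjusted p = 1.7e-05) in D13_Ngn3, 3.52 ± 0.44 (adjusted p = 9.4e-06) in D13_Ngn1, -2.16 ± 0.48 (adjusted p = 0.006303) in D1_Ngn3 and -1.74 ± 0.46 (adjusted p = 0.0206) in D1_Ngn1. The D1_Ngn1 value was no longer called without Ctrl replicate a or without D1_Ngn1 replicate a or c (adjusted p = 0.124, 0.0634 and 0.0823). Pcdh17 (chr14:84443563-84539002), a presynaptic adhesion molecule of corticobasal ganglia circuits, had 45.8, 60.8 and 25.1 CPM in the D13_Ngn3 libraries and 26.1, 52.9 and 48 CPM in the D13_Ngn1 libraries. In D1_Ngn3 Pcdh17 had 0.139, 1.97 and 1.33 CPM, in D1_Ngn1 0.986, 3.12 and 0.932 CPM, and in Ctrl 1.85, 1.66 and 0.482 CPM. It rose by 5.04 ± 0.67 (adjusted p = 1.6e-05) in D13_Ngn3 and 4.99 ± 0.67 (adjusted p = 1.7e-05) in D13_Ngn1, and its day 1 values overlapped those of Ctrl.

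Pcdh18 and Pcdh19, also delta-2 genes, were the tested non-clustered members that rose over Ctrl in neither day 13 group. Pcdh18 (chr3:49743296-49757325) had 150.1, 107 and 78.1 CPM in the D13_Ngn3 libraries and 165, 159 and 85.5 CPM in the D13_Ngn1 libraries. In D1_Ngn3 Pcdh18 had 39.8, 43.6 and 32.2 CPM, in D1_Ngn1 50.9, 59.9 and 36.1 CPM, and in Ctrl 218, 109 and 129 CPM. The day 13 and Ctrl ranges overlapped, with -0.44 ± 0.31 (adjusted p = 0.236) in D13_Ngn3 and -0.15 ± 0.31 (adjusted p = 0.688) in D13_Ngn1. At day 1 it fell, with log2 fold changes of -1.98 ± 0.32 (adjusted p = 0.000689) in D1_Ngn3 and -1.63 ± 0.32 (adjusted p = 0.00275) in D1_Ngn1, with all 6 libraries below all Ctrl libraries. Pcdh19 (chrX:133582860-133688987), mutated in an X-linked epilepsy, had 13.1, 30.6 and 17.97 CPM in the D13_Ngn3 libraries and 32.3, 61.7 and 23.2 CPM in the D13_Ngn1 libraries. In D1_Ngn3 Pcdh19 had 14.1, 5.505 and 24.1 CPM, in D1_Ngn1 15.8, 6.76 and 18.1 CPM, and in Ctrl 69.1, 40.97 and 50.6 CPM. It was the only member called lower at day 13, in D13_Ngn3 (-1.38 ± 0.496, adjusted p = 0.0259) and not in D13_Ngn1 (-0.46 ± 0.49, adjusted p = 0.435), and the difference between the 2 factors did not pass the test (-0.93 ± 0.49, adjusted p = 0.985). The call in D13_Ngn3 was lost without Ctrl replicate a or without D13_Ngn3 replicate a or c (adjusted p = 0.0871, 0.0890 and 0.0693) and with plain library totals (adjusted p = 0.0623). At day 1 it fell, with log2 fold changes of -1.88 ± 0.51 (adjusted p = 0.0219) in D1_Ngn3 and -1.98 ± 0.51 (adjusted p = 0.0168) in D1_Ngn1. Both calls were lost without Ctrl replicate a (adjusted p = 0.0757 and 0.0592), the D1_Ngn3 call also without D1_Ngn3 replicate a or b (0.0648 and 0.0754), and the D1_Ngn1 call also without D1_Ngn1 replicate b (0.0781).

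Of the other non-clustered genes, Pcdh15 (chr10:73099342-74649737), part of the tip links of hair cells in the inner ear, had 2.999, 6.98 and 3.2 CPM in the D13_Ngn3 libraries and 2.75, 8.599 and 9.197 CPM in the D13_Ngn1 libraries. In D1_Ngn3 Pcdh15 had 0.277, 0.869 and 0.506 CPM, in D1_Ngn1 0.263, 0.647 and 0.599 CPM, and in Ctrl 0, 0.448 and 0.121 CPM. It rose by 4.48 ± 0.77 (adjusted p = 0.000172) in D13_Ngn3 and 5.12 ± 0.78 (adjusted p = 5.5e-05) in D13_Ngn1. Pcdh15 passed the filter on low counts through its day 13 libraries, so that this rise is a description. Pcdh20 (chr14:88464743-88471396) had 9.05, 6.49 and 5.17 CPM in the D13_Ngn3 libraries and 7.397, 9.37 and 13.5 CPM in the D13_Ngn1 libraries. In D1_Ngn3 Pcdh20 had 0.624, 0.637 and 0.569 CPM, in D1_Ngn1 1.25, 0.765 and 1.06 CPM, and in Ctrl 5.09, 1.41 and 2.59 CPM. All day 1 libraries lay below and all day 13 libraries above the Ctrl libraries. It fell, with log2 fold changes of -2.296 ± 0.46 (adjusted p = 0.00345) in D1_Ngn3 and -1.56 ± 0.44 (adjusted p = 0.0285) in D1_Ngn1, and rose by 1.19 ± 0.41 (adjusted p = 0.0202) in D13_Ngn3 and 1.73 ± 0.41 (adjusted p = 0.00195) in D13_Ngn1. The D1_Ngn1 call was lost without Ctrl replicate a (adjusted p = 0.165) or without any of the D1_Ngn1 libraries (0.0538 to 0.119), and the D13_Ngn3 call without Ctrl replicate b or c or D13_Ngn3 replicate a (0.0788 to 0.0922). With only the groups compared the D1_Ngn1 call was lost as well (adjusted p = 0.0617). Pcdh12 (chr18:38267089-38284402), a protocadherin of endothelial cells, had 5, 1 and 1 counts in D13_Ngn3, 0, 5 and 3 in D13_Ngn1, 0, 0 and 0 in D1_Ngn3, 0, 0 and 0 in D1_Ngn1 and 4, 0 and 0 in Ctrl. A count of 0 allows 0.152 to 0.208 CPM in these libraries, counting error only.

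**Figure D2:**
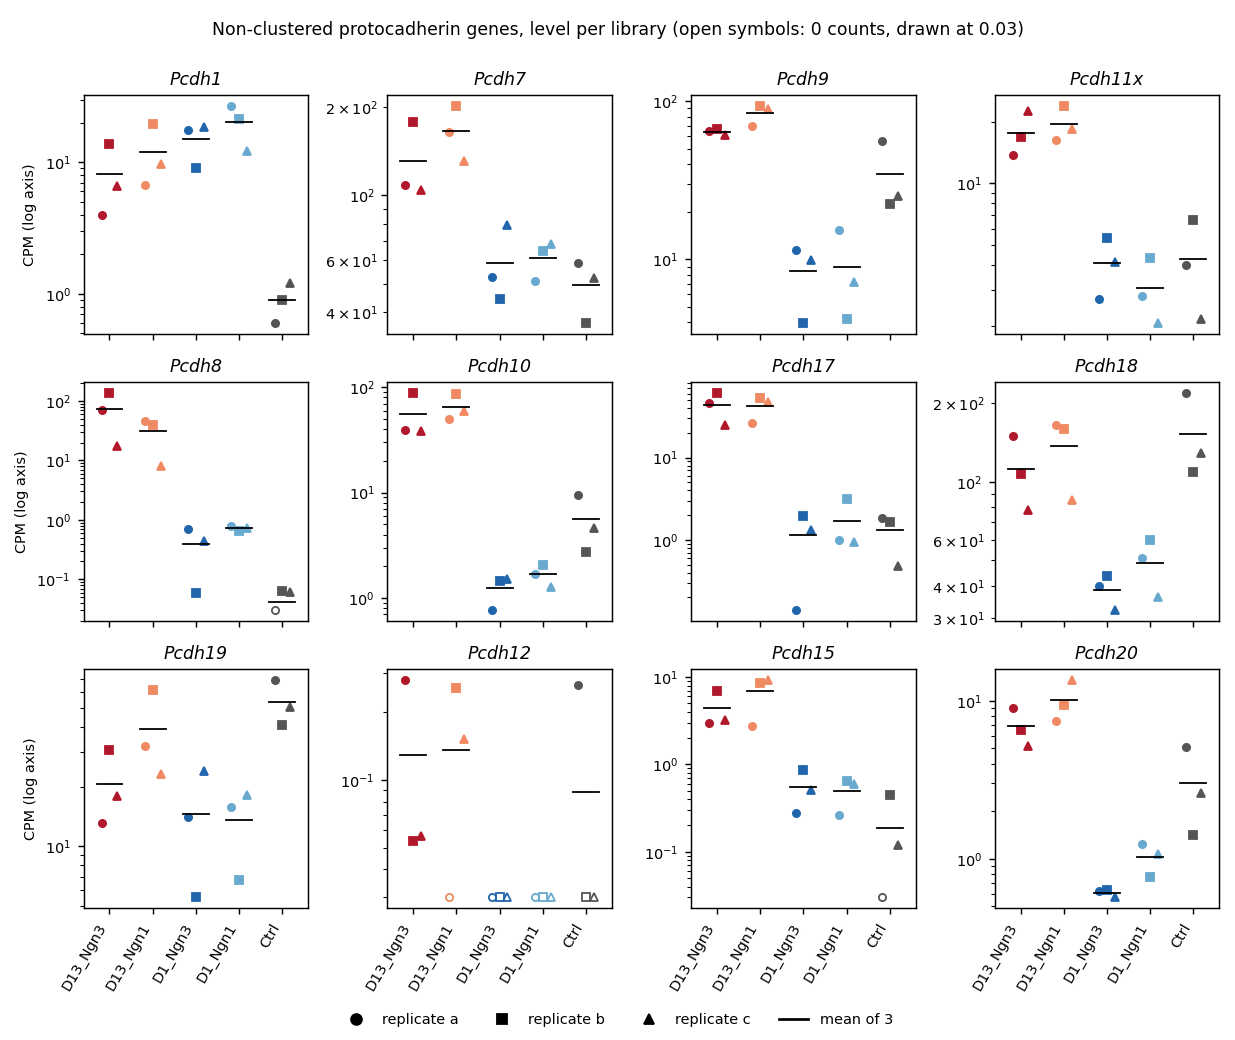
CPM of the 12 non-clustered protocadherin genes (log axis, scale differs between panels) in each library; symbols mark replicates a, b and c, bars are means of 3 libraries, and open symbols are 0 counts drawn at 0.03. Pcdh9, Pcdh10 and Pcdh20 lie below Ctrl at day 1 and above it at day 13, whereas Pcdh1 lies above Ctrl at both times.

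The variable alpha genes were close to undetected in Ctrl and at day 1, and most of them were detected at day 13. The cluster spans chr18:36930184-37187661 on the plus strand, with 12 variable genes followed by the C-type genes Pcdhac1 and Pcdhac2. Of its 14 genes, 11, 11 and 14 had at least 1 count in the D13_Ngn3 libraries and 12, 13 and 14 in the D13_Ngn1 libraries, against 6, 7 and 4 in D1_Ngn3, 5, 6 and 3 in D1_Ngn1 and 5, 3 and 3 in Ctrl. The 12 variable genes together had 9.22, 15.9 and 6.23 CPM in the D13_Ngn3 libraries and 7.005, 28.9 and 24 CPM in the D13_Ngn1 libraries. In D1_Ngn3 the variable alpha sum was 0.694, 0.579 and 0.253 CPM, in D1_Ngn1 0.4599, 0.353 and 0.133 CPM, and in Ctrl 0.463, 0.3201 and 0.121 CPM. Their Ctrl libraries held 14 counts in all, against 574 in D13_Ngn3 and 1162 in D13_Ngn1. Pcdha9, the variable gene with the highest mean level, had 1.05, 3.596 and 1.46 CPM in the D13_Ngn3 libraries and 1.401, 4.94 and 4.85 CPM in the D13_Ngn1 libraries. In D1_Ngn3 Pcdha9 had 0.139, 0.0579 and 0.0632 CPM, in D1_Ngn1 0.0657, 0.0588 and 0 CPM, and in Ctrl 0, 0 and 0.0603 CPM. Its ratio of summed counts to Ctrl was 97.3 (95% counting interval 17.1 to 3880) in D13_Ngn3 and 180 (95% counting interval 32 to 7140) in D13_Ngn1, and the test gave adjusted p = 6.5e-05 and 1.6e-05. Pcdha2 had 26, 35 and 7 counts in D13_Ngn3 and 19, 108 and 55 in D13_Ngn1, and 0 in each D1_Ngn3, D1_Ngn1 and Ctrl library, so that it was at least 19.7-fold higher in D13_Ngn3 and at least 50.3-fold higher in D13_Ngn1 than in Ctrl, taking 3 counts over the Ctrl group. Pcdha3 had 0.889, 2.04 and 0.786 CPM in the D13_Ngn3 libraries and 0.729, 4.68 and 4.14 CPM in the D13_Ngn1 libraries. In D1_Ngn3 Pcdha3 had 0, 0 and 0 CPM, in D1_Ngn1 0, 0 and 0.0666 CPM, and in Ctrl 0.0662, 0.192 and 0 CPM. It rose by 3.76 ± 0.96 (adjusted p = 0.00449) in D13_Ngn3 and 5.12 ± 0.95 (adjusted p = 0.000438) in D13_Ngn1. Pcdha2, Pcdha3 and Pcdha9 passed the filter on low counts through their day 13 libraries, so these rises are a description.

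Of the 12 variable alpha genes, 9 passed the filter on low counts, which they did through their day 13 libraries, so that their rise over Ctrl in both day 13 groups is a description. With the filter set on the groups compared alone, 5 alpha genes were tested in D13_Ngn3 against Ctrl and 4 were called, and 8 were tested in D13_Ngn1 and 7 called; Pcdha1, Pcdha2, Pcdha6, Pcdha7 and the tested Pcdha11 entry were then not tested in D13_Ngn3. Pcdha1, Pcdha6 and Pcdha7, like Pcdha2, had 0 counts in all Ctrl libraries. Their lower bounds were 7.24, 6.95 and 6.37 times Ctrl in D13_Ngn3 and 9.95, 16.9 and 27.4 times in D13_Ngn1. With these 4 genes at their bounds, the median log2 fold change of the 10 tested alpha genes was 3.599 in D13_Ngn3 and 4.95 in D13_Ngn1; with fitted values it was 5.72 and 6.43. Among the called alpha genes with counts in Ctrl, the lowest fold change was that of the Pcdha11 entry ENSMUSG00000007440, with 3.44 ± 0.83 (adjusted p = 0.00241) in D13_Ngn3 and 3.74 ± 0.83 (adjusted p = 0.00122) in D13_Ngn1. The name table gives this symbol to 2 IDs, and RefSeq places Pcdha10 where the entry lies. Alpha levels varied among libraries of a group: the variable genes were lowest in replicate c of D13_Ngn3 and replicate a of D13_Ngn1. The delivered factor summed to 1241, 5261 and 5069.6 CPM in D13_Ngn3 and 1276, 3142 and 4065 CPM in D13_Ngn1. The 12 neuron markers summed to 707, 882 and 689 CPM and 648, 1427 and 1613 CPM in the same libraries. Their part in the alpha levels was not tested.

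Of the C-type alpha genes, Pcdhac2 was called in neither day 13 group and Pcdhac1 was detected at day 13 alone. Pcdhac2 had 0.722, 2.04 and 0.898 CPM in the D13_Ngn3 libraries and 1.18, 4.58 and 1.92 CPM in the D13_Ngn1 libraries. In D1_Ngn3 Pcdhac2 had 0.139, 0.2897 and 0.1897 CPM, in D1_Ngn1 0.329, 0.176 and 0.333 CPM, and in Ctrl 1.26, 2.18 and 1.21 CPM. It was the most abundant alpha gene in Ctrl, all day 1 libraries lay below all Ctrl libraries, and the day 13 and Ctrl ranges overlapped. The log2 fold change over Ctrl was -0.34 ± 0.54 (adjusted p = 0.6104) in D13_Ngn3, 0.73 ± 0.53 (adjusted p = 0.246) in D13_Ngn1, -2.84 ± 0.65 (adjusted p = 0.00793) in D1_Ngn3 and -2.45 ± 0.63 (adjusted p = 0.0165) in D1_Ngn1. The D1_Ngn1 call was lost without Ctrl replicate b or D1_Ngn1 replicate b (adjusted p = 0.0647 and 0.0799). Pcdhac1 had 0, 0 and 1 counts in D13_Ngn3 and 2, 9 and 11 in D13_Ngn1, and 0 counts in all D1_Ngn3, D1_Ngn1 and Ctrl libraries. That put it at least 6.08-fold higher in D13_Ngn1 than in Ctrl.

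Every tested beta gene, 21 of 21, rose over Ctrl in both day 13 groups, and 0 of 21 were called at day 1 with either factor, where 1 (D1_Ngn1) and 0 (D1_Ngn3) had an unadjusted p under 0.05. The beta counts rest in part on the filter, which 11 of these genes passed when it was set on Ctrl and a day 1 group alone; 0 of those 11 were called in either day 1 group. The cluster spans chr18:37264938-37524479 on the plus strand. Pcdhb1 had 0 counts in all 15 libraries, and between 18 and 21 of the 22 beta genes had at least 1 count in every library of every group. Pcdhb22, the beta gene with the highest mean level, had 42.9, 40.95 and 33.97 CPM in the D13_Ngn3 libraries and 37.04, 32.5 and 35.02 CPM in the D13_Ngn1 libraries. In D1_Ngn3 Pcdhb22 had 4.16, 10.7 and 4.93 CPM, in D1_Ngn1 6.77, 11.1 and 5.33 CPM, and in Ctrl 3.24, 7.81 and 6.21 CPM. Day 13 libraries did not overlap any other group, and those of day 1 overlapped Ctrl. It had the lowest of the beta fold changes over Ctrl, 2.77 ± 0.38 (adjusted p = 2.2e-05) in D13_Ngn3 and 2.596 ± 0.38 (adjusted p = 3.7e-05) in D13_Ngn1. Pcdhb17 had 44.3, 40.04 and 31.8 CPM in the D13_Ngn3 libraries and 31.9, 31.8 and 42.8 CPM in the D13_Ngn1 libraries. In D1_Ngn3 Pcdhb17 had 3.95, 6.89 and 4.36 CPM, in D1_Ngn1 4.402, 8.65 and 3.19 CPM, and in Ctrl 4.37, 4.93 and 5.31 CPM. Its fold changes were 2.99 ± 0.33 (adjusted p = 3.2e-06) in D13_Ngn3 and 2.86 ± 0.33 (adjusted p = 4.5e-06) in D13_Ngn1. The next most abundant genes, Pcdhb20 and Pcdhb19, rose by 3.78 ± 0.45 and 2.93 ± 0.46 in D13_Ngn3 and by 3.65 ± 0.44 and 2.68 ± 0.45 in D13_Ngn1. At the other end, Pcdhb10 had 128, 112 and 53 counts in D13_Ngn3, 66, 139 and 104 in D13_Ngn1, 1, 2 and 1 in D1_Ngn3, 2, 3 and 2 in D1_Ngn1 and 0, 1 and 2 in Ctrl. Its ratio of summed counts to Ctrl was 84.9 (95% counting interval 28.8 to 414) in D13_Ngn3 and 85.4 (95% counting interval 29 to 417) in D13_Ngn1.

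Within the beta cluster, genes later in the cluster tended to have higher levels. Over the 22 beta genes, Spearman's rho between the order on the chromosome and the mean CPM per kilobase of unshared exon (exon bases that no other annotated gene covers on either strand) was 0.747 in D13_Ngn3, 0.744 in D13_Ngn1, 0.650 in D1_Ngn3, 0.688 in D1_Ngn1 and 0.706 in Ctrl. The genes share libraries and depth, and these values are descriptions. On this scale Pcdhb20 had 8.92 CPM per kilobase in D13_Ngn3, 8.17 in D13_Ngn1 and 0.6498 in Ctrl, and Pcdhb3, near the start of the cluster, had 1.697, 1.71 and 0.1004. Pcdhb9 stood above its neighbours at day 13, with 5.08 CPM per kilobase in D13_Ngn3 and 4.83 in D13_Ngn1, against 0.146 in Ctrl. The fold change over Ctrl ran the other way along the cluster, with rho of -0.365 in D13_Ngn3 and -0.460 in D13_Ngn1 over the 21 tested genes. In the alpha cluster rho for the level was -0.033 in D13_Ngn3, -0.222 in D13_Ngn1, 0.552 in D1_Ngn3, 0.396 in D1_Ngn1 and 0.348 in Ctrl over 14 genes, many of them with few or 0 counts outside day 13. In the gamma cluster it was -0.284, -0.119, 0.1, 0.0844 and 0 in the same order of groups over 21 genes. Beta genes are alike in sequence, and how reads matching several of them were counted is not given in the sources used here.

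**Figure D3:**
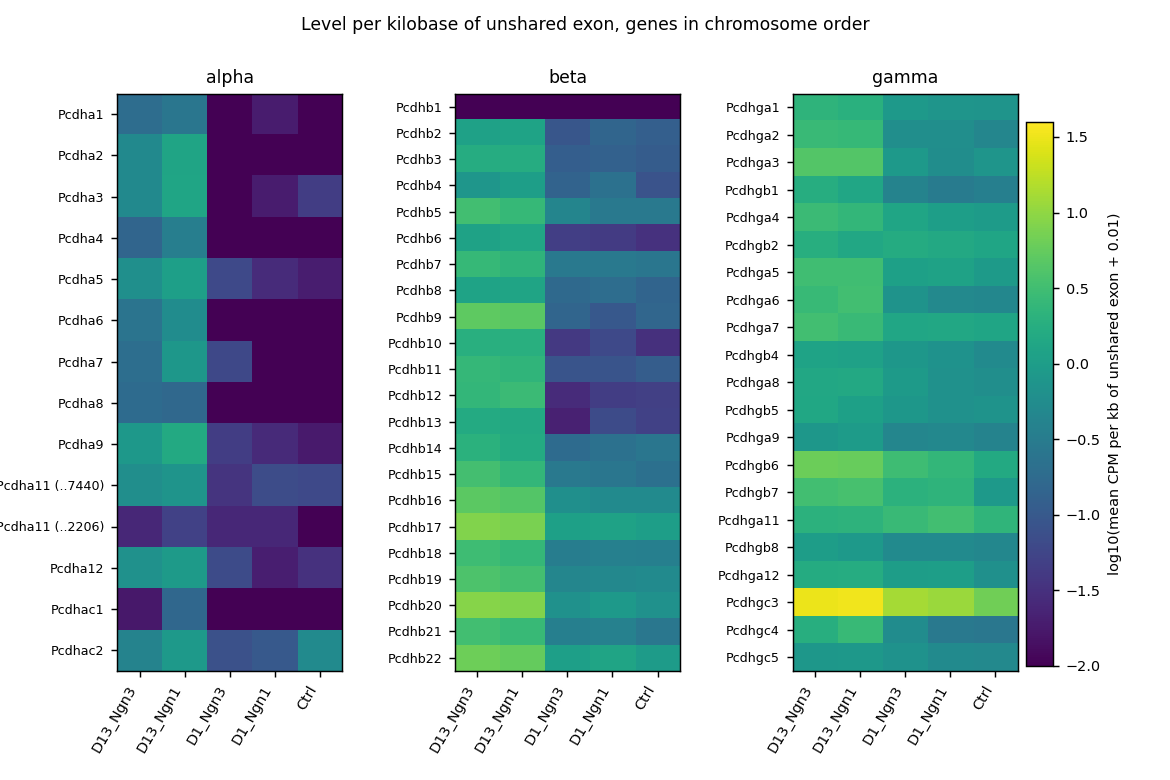
Mean level of each alpha, beta and gamma gene in each group, as log10 of mean CPM per kilobase of unshared exon plus 0.01 (colour), with genes in chromosome order from top to bottom. Pcdhga10, which has no unshared exon, is left out; the variable alpha genes are dark outside the day 13 groups while Pcdhac2 is also visible in Ctrl, beta genes brighten towards the end of the cluster, and Pcdhgc3 is the brightest clustered gene in every group.

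The gamma genes were detected in all groups, and not all of them rose at day 13. The cluster spans chr18:37661793-37841873 on the plus strand. In every library 21 or 22 of its 22 genes had at least 1 count. In D13_Ngn3 17 of 21 tested genes rose over Ctrl and in D13_Ngn1 16 of 21, with median log2 fold changes of 1.59 and 1.398. Without D13_Ngn3 replicate b, which had the highest summed gamma level of its group, 11 gamma genes were called in D13_Ngn3 (Pcdhga1, Pcdhgb4, Pcdhga8, Pcdhga9, Pcdhgb8 and Pcdhga12 lost their calls), and without D13_Ngn1 replicate b 11 were called in D13_Ngn1. Those that did not pass the test in either group were Pcdhgb2 (0.51 ± 0.37 in D13_Ngn3 and 0.18 ± 0.37 in D13_Ngn1), Pcdhgb5 (0.96 ± 0.45 and 0.66 ± 0.44), Pcdhga11 (-0.13 ± 0.36 and -0.09 ± 0.36) and Pcdhgc5. Pcdhgb8 was called in D13_Ngn3 (1.15 ± 0.39, adjusted p = 0.0193) and not in D13_Ngn1 (0.88 ± 0.39, adjusted p = 0.0626), with 0.27 ± 0.37 (adjusted p = 1) between the factors. The D13_Ngn3 call was lost without D13_Ngn3 replicate b or Ctrl replicate b or with no filter (adjusted p = 0.133, 0.0836 and 0.0661), and the D13_Ngn1 difference was called with library totals (0.0167). Among the abundant gamma genes, Pcdhgb6 had 9.61, 26.6 and 10.7 CPM in the D13_Ngn3 libraries and 14.3, 19.4 and 10.7 CPM in the D13_Ngn1 libraries. In D1_Ngn3 Pcdhgb6 had 4.99, 10.2 and 8.03 CPM, in D1_Ngn1 5.52, 9.06 and 4.13 CPM, and in Ctrl 3.57, 4.74 and 3.497 CPM. It rose by 1.99 ± 0.42 (adjusted p = 0.000979) in D13_Ngn3 and 1.91 ± 0.42 (adjusted p = 0.00127) in D13_Ngn1, and it was called in D1_Ngn3 with the replicate letter as a block over all groups or within a day (adjusted p = 0.0282 and 0.0244). The p-value of the block within a day can be too small against Ctrl, as letter spread leaves the error. Pcdhga3 rose by 2.54 ± 0.45 and 2.49 ± 0.45, and Pcdhga7, the lowest called in D13_Ngn1, by 1.303 ± 0.28 and 1.06 ± 0.28. The lowest called in D13_Ngn3 was Pcdhga9, with 1.02 ± 0.38 (adjusted p = 0.0309). That call was also lost without any one of the Ctrl libraries (adjusted p = 0.0672 to 0.0835), with no filter (0.0925) and with only the groups compared (0.0654).

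Pcdhgb7 was the clustered gene that rose at day 1. It had 3.33, 9.18 and 5.11 CPM in the D13_Ngn3 libraries and 5.83, 8.24 and 5.15 CPM in the D13_Ngn1 libraries. In D1_Ngn3 Pcdhgb7 had 4.02, 3.25 and 3.92 CPM, in D1_Ngn1 3.75, 4.53 and 3.53 CPM, and in Ctrl 1.32, 1.41 and 2.11 CPM. All Ngn3 and Ngn1 libraries lay above all Ctrl libraries. The log2 fold change over Ctrl was 1.86 ± 0.38 (adjusted p = 0.000643) in D13_Ngn3, 1.98 ± 0.38 (adjusted p = 0.000368) in D13_Ngn1, 1.201 ± 0.38 (adjusted p = 0.0465) in D1_Ngn3 and 1.28 ± 0.38 (adjusted p = 0.0349) in D1_Ngn1. Both day 1 calls lay close to the threshold: the D1_Ngn1 call was lost without Ctrl replicate a or b or any one of the D1_Ngn1 libraries (adjusted p = 0.0567 to 0.125), and the D1_Ngn3 call was lost without any one of the Ctrl or D1_Ngn3 libraries (0.0553 to 0.142) and without 6 of the other libraries. The D1_Ngn3 call was also lost with no filter (adjusted p = 0.0585) and with only the groups compared (0.0669). The exons of Pcdhgb7 overlap the antisense gene Gm26672, which had 3 to 24 counts per library.

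The C-type gamma genes differed among themselves. Pcdhgc3 had 34.8, 100.2 and 35.8 CPM in the D13_Ngn3 libraries and 60.2, 81.1 and 42.5 CPM in the D13_Ngn1 libraries. In D1_Ngn3 Pcdhgc3 had 17.3, 26.1 and 27.8 CPM, in D1_Ngn1 17.4, 30.5 and 15.2 CPM, and in Ctrl 10.2, 14.9 and 11.3 CPM. It was the most abundant clustered gene in every group, day 13 libraries lay above all others, and all 6 day 1 libraries lay above the highest Ctrl library. It rose by 2.23 ± 0.41 (adjusted p = 0.000274) in D13_Ngn3 and 2.34 ± 0.41 (adjusted p = 0.000184) in D13_Ngn1; the day 1 values, 0.97 ± 0.397 in D1_Ngn3 and 0.79 ± 0.396 in D1_Ngn1, did not pass the test. They were called with the replicate letter as a block within a day (adjusted p = 0.0135 in D1_Ngn3 and 0.0462 in D1_Ngn1), and in D1_Ngn3 also with the block over all groups (0.0191), with no filter (0.0346), with only the groups compared (0.0388) and without D13_Ngn3 replicate b (0.0494). The p-values of the block within a day can be too small against Ctrl, as letter spread leaves the error. The exons of Pcdhgc3 overlap the antisense gene BC037039, which had 3 to 31 counts per library. Pcdhgc4, which interneurons need to survive, had 3.11, 11.2 and 4.43 CPM in the D13_Ngn3 libraries and 6.28, 13.1 and 8.34 CPM in the D13_Ngn1 libraries. In D1_Ngn3 Pcdhgc4 had 1.25, 2.897 and 1.71 CPM, in D1_Ngn1 1.18, 1 and 0.666 CPM, and in Ctrl 0.992, 0.512 and 1.15 CPM. It had the greatest gamma fold change over Ctrl at day 13, 2.81 ± 0.53 (adjusted p = 0.000351) in D13_Ngn3 and 3.37 ± 0.53 (adjusted p = 7.9e-05) in D13_Ngn1. Pcdhgc5 had 1.78, 5.15 and 4.04 CPM in the D13_Ngn3 libraries and 2.52, 4.07 and 4.85 CPM in the D13_Ngn1 libraries. In D1_Ngn3 Pcdhgc5 had 0.832, 5.27 and 3.098 CPM, in D1_Ngn1 1.84, 3.59 and 1.66 CPM, and in Ctrl 1.52, 2.304 and 2.89 CPM. The range of every Ngn3 or Ngn1 group overlapped that of Ctrl, with 0.704 ± 0.56 (adjusted p = 0.292) in D13_Ngn3 and 0.76 ± 0.56 (adjusted p = 0.248) in D13_Ngn1.

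**Figure D4:**
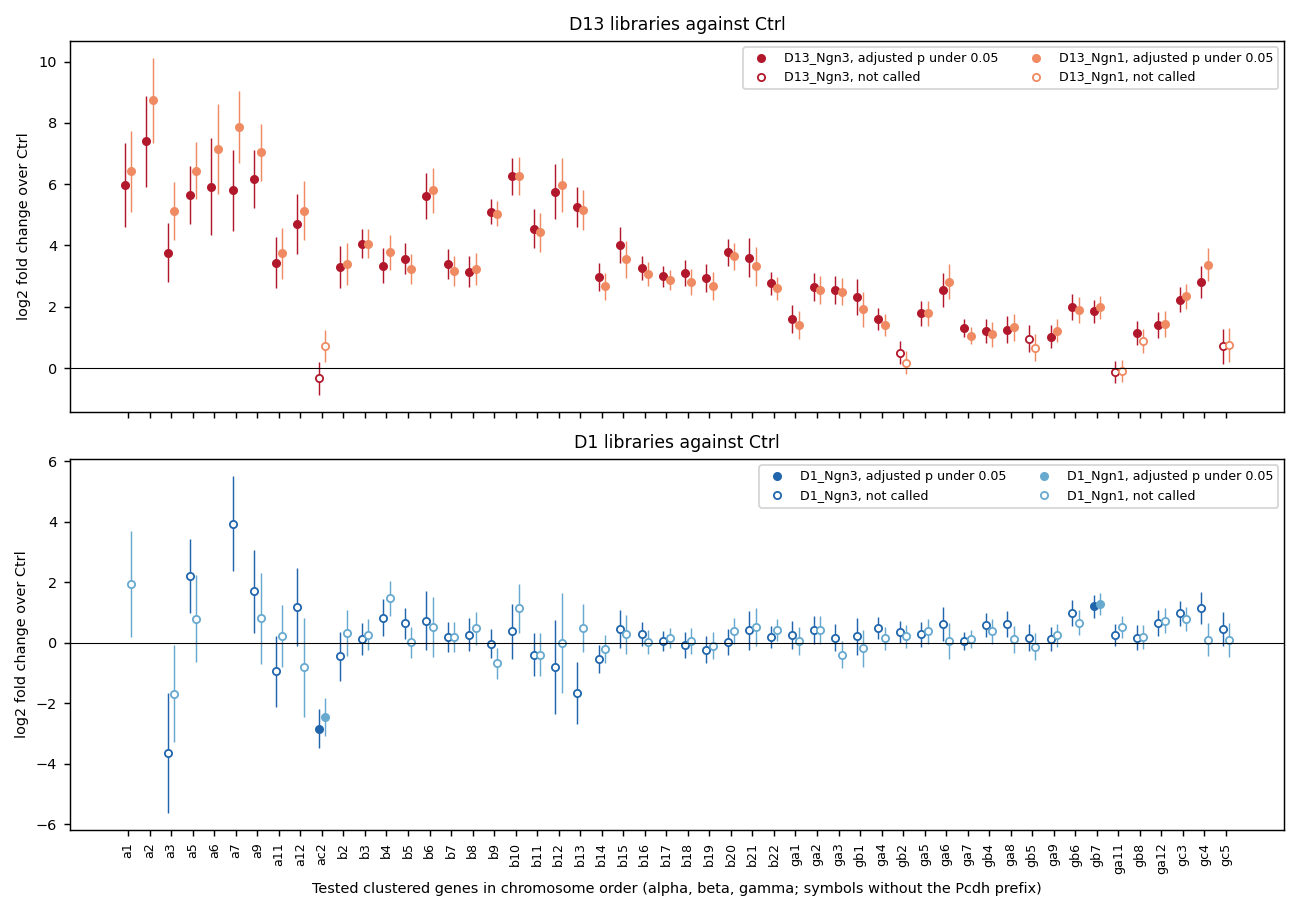
Log2 fold change over Ctrl (points, bars are standard errors, 3 libraries per group) of the tested clustered genes in chromosome order, for the day 13 groups (upper panel) and the day 1 groups (lower panel); filled points passed adjusted p under 0.05, and genes with 0 counts in both groups have no point. Alpha genes with 0 counts in Ctrl (a1, a2, a6 and a7) show fitted values that are no bounds; beta genes all lie above 2 at day 13, and at day 1 only ac2 and gb7 are filled.

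Between the days, most members were higher at day 13. In D13_Ngn3 against D1_Ngn3 51 members rose and 0 fell, where 29% of all tested genes rose and 26.8% fell, and in D13_Ngn1 against D1_Ngn1 54 rose and 0 fell, where 30.6% rose and 27.3% fell. At an unadjusted p under 0.05, 0 were lower in both, and DESeq2 also called 0 lower. With plain library totals, 63.1% and 65.4% of all called genes were higher, against 51.9% and 52.9% with TMM. All 21 tested beta genes rose with either factor, as did 9 of 10 alpha genes with Ngn3 and 10 of 10 with Ngn1, 12 and 13 of 21 gamma genes, and 9 and 10 of 11 non-clustered genes. The gamma count rested on 1 library with Ngn3: without D13_Ngn3 replicate b, 5 gamma genes were called higher. The highest fitted beta fold change was 6.899 ± 0.75 (adjusted p = 3.8e-06) for Pcdhb13 in Ngn3 and 5.98 ± 0.89 (adjusted p = 5.1e-05) for Pcdhb12 in Ngn1. The day 1 libraries held 2 counts of Pcdhb13 with Ngn3 and 2 of Pcdhb12 with Ngn1. Their ratios of summed counts to day 1 were 141 (counting interval 38.7 to 1170) and 73.7 (counting interval 20.1 to 613). Both genes passed the filter on low counts through their day 13 libraries, so these rises are a description. The lowest beta fold change was 2.51 ± 0.52 (adjusted p = 0.000897) for Pcdhb4 in Ngn3 and 2.17 ± 0.37 (adjusted p = 0.000158) for Pcdhb22 in Ngn1. Pcdhb4 also passed the filter through its day 13 libraries, so its rise is a description. Pcdh10 rose by 5.45 ± 0.501 (adjusted p = 8.9e-07) with Ngn3 and 5.26 ± 0.49 (adjusted p = 8.5e-07) with Ngn1. Pcdh18, which did not differ from Ctrl past the threshold at day 13, rose over day 1 by 1.54 ± 0.32 (adjusted p = 0.00087) and 1.48 ± 0.32 (adjusted p = 0.00104). Pcdh1 had -0.89 ± 0.47 (adjusted p = 0.122) and -0.75 ± 0.47 (adjusted p = 0.177), and was called lower without replicate b of the day 13 group (adjusted p = 0.0225 with Ngn3 and 0.0421 with Ngn1).

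No member passed the test between the factors. In D13_Ngn3 against D13_Ngn1, 0 of 63 members were called (1 at an unadjusted p under 0.05), where 0.0237% of all tested genes were called. In D1_Ngn3 against D1_Ngn1 0 were called (2 unadjusted), where 0.0119% were, and in the interaction of day and factor 0 were called (2 unadjusted), where 0% were. DESeq2 gave 0, 0 and 0 calls. The widest difference at day 13 was that of Pcdha7, with 0.333, 0.5904 and 0.281 CPM in D13_Ngn3 and 0.5604, 2.78 and 1.77 CPM in D13_Ngn1. Its log2 fold change was -2.06 ± 0.64 (adjusted p = 0.528). Pcdh8 was on the other side, with 1.25 ± 0.62 (adjusted p = 0.934). All 10 tested alpha genes had lower fitted values in D13_Ngn3 than in D13_Ngn1 (-2.06 to -0.30), and the summed alpha ranges of the 2 groups overlapped. Libraries with the same letter were taken as pairs between the 2 factors within a day, which the labels do not state. A fit with the letter as a replicate block within day called 0 members in these comparisons. Over all tested genes that fit called 50 higher and 86 lower in D13_Ngn3 against D13_Ngn1, where the fit with no block called 1 higher and 3 lower.

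The order of the protocadherins by level depended on the length used. Per kilobase of all annotated exon, Pcdh18 had the highest mean in every group, with 20.8 CPM per kilobase in D13_Ngn3, 25.5 in D13_Ngn1, 7.18 in D1_Ngn3, 9.12 in D1_Ngn1 and 28.3 in Ctrl. Pcdhgc3 had 10.3, 11.1, 4.31, 3.82 and 2.21 on the same scale and in the same order of groups. Of the 5499 exon bases of Pcdhgc3, 1821 are unshared, and dividing by these alone raises its value. On that scale, in Ctrl, Pcdh18 stood first with 28.3 CPM per kilobase of unshared exon, ahead of Pcdhgc3 with 6.66, Pcdh7 with 5.89, Pcdh19 with 5.15 and Pcdh9 with 5.08. In D13_Ngn3 and D13_Ngn1, Pcdhgc3 had 31.2 and 33.6 CPM per kilobase of unshared exon, and Pcdh18 had 20.8 and 25.5. Pcdh8 had 18.1 in D13_Ngn3 and 7.599 in D13_Ngn1, and 0.0101 in Ctrl. These means rest on 3 libraries that spread widely for Pcdh8 and Pcdhgc3, so neighbouring ranks are not separated.

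The protein-coding genes around the clusters moved in both directions at day 13. Of 24 tested non-protocadherin genes within 500 kb of the clusters, 4 rose and 8 fell over Ctrl in D13_Ngn3 and 5 rose and 7 fell in D13_Ngn1, with median log2 fold changes of -0.17 and -0.32. Over all tested genes, 31.2% rose and 26.4% fell in D13_Ngn3 and 32.6% rose and 26.8% fell in D13_Ngn1. The 24 neighbours had fewer rises than these shares and falls near them. Among 11 tested Fat, Dachsous, Celsr and calsyntenin genes, which belong to other branches of the cadherin superfamily, 10 rose and 0 fell in each day 13 group, a larger share than the 31.2% and 32.6% of all tested genes that rose. Fat1 rose by 1.77 ± 0.47 in D13_Ngn3 and 1.502 ± 0.47 in D13_Ngn1, and Clstn1, a synaptic calsyntenin, by 2.703 ± 0.33 and 2.88 ± 0.34. At day 1 only Clstn2 of this list was called, higher by 2.91 ± 0.45 in D1_Ngn3 and 2.58 ± 0.45 in D1_Ngn1. Of 21 tested classical and other cadherins, 10 rose and 2 fell in D13_Ngn3 and 10 rose and 3 fell in D13_Ngn1, against the same 31.2% and 32.6% higher and 26.4% and 26.8% lower over all genes. Cdh10 rose by 1.61 ± 0.19 and 1.87 ± 0.19, and at day 1 already by 2.14 ± 0.19 in D1_Ngn3 and 1.84 ± 0.19 in D1_Ngn1. Cdh3 (P-cadherin), found in epithelia, fell, with log2 fold changes of -4.15 ± 0.64 in D1_Ngn3 and -3.92 ± 0.63 in D1_Ngn1.

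Genes that act on protocadherin promoter choice and chromatin moved in both directions at day 13. Of 24 tested, 7 rose and 8 fell in D13_Ngn3 and 6 rose and 8 fell in D13_Ngn1, near the shares over all tested genes of 31.2% higher and 26.4% lower in D13_Ngn3 and 32.6% higher and 26.8% lower in D13_Ngn1. At day 1, 1 rose (Rest, 0.58 ± 0.18 in D1_Ngn3) and 0 fell with Ngn3, and 0 were called with Ngn1. The cohesin subunits Smc1a and Smc3 fell, with log2 fold changes of -0.97 ± 0.27 and -0.96 ± 0.17 in D13_Ngn3 and -1.01 ± 0.27 and -1.01 ± 0.17 in D13_Ngn1. The de novo DNA methyltransferase Dnmt3a rose by 1.604 ± 0.21 and 1.89 ± 0.22, and the cohesin loader Mau2 by 0.87 ± 0.19 and 0.95 ± 0.19. Of 14 tested signalling partners of protocadherins, 8 rose and 6 fell in D13_Ngn3 and 7 rose and 5 fell in D13_Ngn1, above both of those shares in each group. Marcks rose by 1.62 ± 0.31 and 1.61 ± 0.31, and Set fell, with log2 fold changes of -1.78 ± 0.26 and -1.66 ± 0.26. The neuroligin Nlgn1 of this list rose at day 1, by 5.27 ± 0.54 in D1_Ngn3 and 5.63 ± 0.54 in D1_Ngn1. Of 10 tested genes of the WAVE complex, an actin regulator that binds delta-2 tails, 3 rose and 2 fell in each day 13 group, near the same shares: Cyfip2 rose by 4.53 ± 0.403 and 5.22 ± 0.41, and its paralogue Cyfip1 fell, with log2 fold changes of -1.27 ± 0.25 and -1.35 ± 0.25. Of 8 tested genes of shedding and gamma-secretase cleavage, 2 rose and 2 fell in each day 13 group, also near those shares, among them the sheddase Adam10, which fell, with log2 fold changes of -0.57 ± 0.17 and -0.58 ± 0.17.

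Lists of cell type markers moved in different directions at day 13. Summed over 12 neuron markers, levels were 689 to 882 CPM in D13_Ngn3, 648 to 1613 in D13_Ngn1, 76.7 to 203 in D1_Ngn3, 89.9 to 211 in D1_Ngn1 and 85.5 to 103 in Ctrl. Of these, 10 of 12 rose in D13_Ngn3 and 12 of 12 in D13_Ngn1, and at day 1 0 rose and 2 fell with each factor. Over all tested genes, 31.2% rose and 26.4% fell in D13_Ngn3, and 32.6% rose and 26.8% fell in D13_Ngn1. At day 1, 7.19% rose and 5.59% fell in D1_Ngn3, and 6.78% rose and 5.42% fell in D1_Ngn1. Of 12 fibroblast markers, 7 rose and 4 fell in D13_Ngn3 and 6 rose and 3 fell in D13_Ngn1, and the same list had 1 higher and 5 lower in D1_Ngn3 and 1 higher and 4 lower in D1_Ngn1. Epithelial markers (8) summed to 0.786 to 1.72 CPM in D13_Ngn3, 0.404 to 1.44 in D13_Ngn1, 23.4 to 120.0 in D1_Ngn3, 33.5 to 97.3 in D1_Ngn1 and 44.8 to 148 in Ctrl, with 5 of 5 tested lower in both day 13 groups. Macrophage markers (12) ranged over 19.4 to 292, 30.8 to 121, 38.8 to 42.7, 61.7 to 82.8 and 158 to 243 CPM in the same order of groups. Endothelial markers (10) ranged over 21.2 to 32.3, 17.5 to 36.2, 47.3 to 62.98, 45.1 to 65.97 and 62.9 to 115 CPM, with Cldn5 at 0 counts in D13_Ngn3 and Ctrl and Tie1 at 0 in both day 13 groups. Astrocyte and oligodendrocyte markers (10) summed to 66.6 to 86.9 CPM in D13_Ngn3, 68.9 to 104 in D13_Ngn1 and 30.1 to 43.5 in Ctrl, with 4 and 5 of 7 tested higher at day 13 and Olig1 at 0 in Ctrl. Schwann and neural crest markers (8) summed to 19.5 to 62.04, 26 to 55.1 and 5.42 to 14.8 CPM in those groups, with 2 of 7 tested higher in each day 13 group, near the share of all tested genes that rose. The part of these cell types in the protocadherin levels was not tested.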

How the data were processed

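Polyadenylated RNA from 15 libraries, 3 in each of 5 groups, was sequenced, and the authors deposited 1 table of raw read counts per gene. Per the submitters' processing notes the tools were CASAVA, HISAT2 and featureCounts with the mm10 build; their versions, annotation, strand and overlap settings are not stated there. Symbols were matched by gene ID to the reference name table (42462 of 43432 IDs), and positions come from GENCODE M21. Genes passing edgeR's expression filter (16872) were tested in 1 quasi-likelihood fit over all 15 libraries with TMM scaling (edgeR 4.0.16, limma 3.58.1, R 4.3.3), with Benjamini-Hochberg adjustment over all of them, and results are given for the protocadherins and the gene lists named. The scripts were tested on simulated data. Alternatives were DESeq2 1.42.0, other scalings, no filter, only the groups compared, a replicate block and leaving out each library. The members and gene lists were chosen with earlier results of these data known.

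Genes named with values were all non-clustered members, the 4 most abundant members of each cluster, the C-type genes and the highest and lowest called member of each cluster in each comparison; Pcdha7, Pcdhb3, Pcdhb9 and the gamma genes that missed the threshold were added after their values were seen. For the other lists, a few called genes were named as examples, some of them chosen after their values were seen. Deviations of libraries with the same letter correlated between the factors within a day (r = 0.454, 0.539 and 0.325 at day 1, and 0.580, 0.521 and 0.575 at day 13), so letters were taken to pair libraries there, a pairing read from the data and not stated in the labels. Between D1_Ngn1 and Ctrl, same-letter libraries a, b and c had r = 0.364, 0.297 and 0.0509. Between D1_Ngn3 and Ctrl they had 0.259, 0.321 and 0.0564. The main tests of day 1 against Ctrl used no block. Intervals on counts are 95% exact and cover counting error only. Total counts of 14869015 to 17859844 put the limit that a count of 0 allows, 3 counts, at 0.152 to 0.208 CPM.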

Additional observations from a re-analysis of the deposited data

Results flagged for a closer look

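The change against Ctrl differed between the days, by the test of day 13 against day 1 itself, for 51 members with Ngn3 and 54 with Ngn1, all higher at day 13. Some of these members passed the filter on low counts through their day 13 libraries, so their part is a description. Pcdh10 was called lower than Ctrl at day 1 and higher at day 13, and the days differed by 5.45 with Ngn3 and 5.26 with Ngn1 on the log2 scale. Pcdh20 did the same, with differences of 3.48 and 3.29. Pcdh9 was called in opposite directions with Ngn1, with a difference of 3.25. The days differ in medium and time in culture as well, which cannot be told apart.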

How the results depend on the processing

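No direction of a member call reversed under the alternatives run. With the replicate block, members higher than Ctrl at day 1 numbered 4 in D1_Ngn3, against 2. With the replicate block within day, chosen after seeing the data, they numbered 5 in D1_Ngn3 (Pcdh8, Pcdhgb6 and Pcdhgc3 gained) and 4 in D1_Ngn1 (Pcdh8 and Pcdhgc3 gained), and 1 member was lower in each of D13_Ngn1 against Ctrl (Pcdh19), D13_Ngn3 against D1_Ngn3 and D13_Ngn1 against D1_Ngn1 (Pcdh1 in both), against 0. That fit takes letter spread out of the error. Its p-values can therefore be too small in comparisons with Ctrl or between days, and the calls gained there are a description. With library totals, 0 members were lower in D13_Ngn3 against Ctrl, against 1. Leaving out each library in turn gave 1 to 3 higher in D1_Ngn3, 1 to 2 higher and 2 to 6 lower in D1_Ngn1, 0 to 1 lower in D13_Ngn3 against Ctrl, and 0 to 1 lower in each comparison of day 13 with day 1. It gave 50 to 57 higher in D13_Ngn3 and 50 to 56 higher in D13_Ngn1 against Ctrl, and 45 to 55 and 50 to 55 higher against day 1. With only the groups compared, D13_Ngn3 against Ctrl lost 7 calls and gained 1, D13_Ngn1 against Ctrl lost 2, and the comparisons with day 1 lost 6 with Ngn3 and 5 with Ngn1; 5 of the 7 were alpha genes no longer tested. The cause of these changes was not tested. The 12 variable alpha genes held 14 counts in all in Ctrl and Pcdh8 held 2, so their fold changes are limited by depth.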
